A study of Mus musculus with 7 samples.

Results

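The genes of mitosis and the G2/M transition were followed in RNA from the nonparenchymal fraction of mouse liver, that is, from all liver cells other than hepatocytes. They are 41 genes for cyclins, mitotic kinases, kinesins, kinetochore parts and checkpoint proteins, chosen by symbol, and all 41 were found among the 20354 rows of the count table. The 7 libraries came from untreated mice of the C57BL/6 background (strain label C57BL/6J) at 2 months of age, 4 labelled WT and 3 labelled Shp2 KO. The knockout line is Shp2 f/f with 1 copy of Clec4f-Cre, a transgene that is active in Kupffer cells (the liver's own macrophages) and removes Shp2 (gene Ptpn11), a tyrosine phosphatase of growth factor and cytokine signalling. The labels do not say whether the WT mice carried the floxed allele or the Cre. The genotype field of the knockout libraries names Shp1, Shp2 and Shp3 in turn while each title names Shp2, and the titles were followed. The libraries hold the whole fraction and not sorted Kupffer cells, so a difference may lie in any cell type, and in such bulk RNA more cells of a dividing type and more RNA per dividing cell cannot be told apart.

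A cell enters mitosis when cyclin A and cyclin B activate the kinase Cdk1, with the help of the phosphatase Cdc25c and the kinase Plk1. Aurora kinases and the chromosomal passenger complex then guide spindle building, kinetochores tie chromosomes to microtubules, and the spindle checkpoint holds back the anaphase-promoting complex until every chromosome is attached. That complex, with Cdc20 and Ube2c, marks cyclin B for destruction, and midzone kinesins and the contractile ring divide the cell. These genes are switched on together late in the cycle by B-Myb, FoxM1 and NF-Y and are held silent in resting cells by the DREAM complex. In adult liver most cells rest, and the nonparenchymal fraction holds a small share of dividing macrophages, lymphocytes and endothelial cells.

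The libraries held between 11678385 and 32003205 counts, and the 41 genes together took between 3429 and 11877 of them. A count of 0 in a library would allow up to 3 counts, or between 0.0937 and 0.257 CPM (read counts scaled to a common library total), but 0 of the 41 genes were at 0 in any library. CPM values here are scaled with TMM factors, which correct for a few abundant genes taking up reads. The labels number the libraries without saying that each came from a separate mouse, so every p-value reflects the spread among libraries only, which may be technical. Clec4f was at 1386 to 2656 CPM in WT and 436 to 865 CPM in knockout libraries, and Ptpn11 at 75.3 to 95.5 and 70.02 to 86.18 CPM, with log2 fold changes of -1.69 ± 0.39 and -0.09 ± 0.18 (SE) and adjusted p-values of 0.487 and 0.974 in edgeR. Whole-gene counts of the mixed fraction are a weak check of a deletion in 1 cell type. Since WT mice may lack Clec4f-Cre, a difference in Clec4f that goes with the transgene and one that goes with Shp2 loss cannot be told apart. WT replicate 2, knockout replicate 2 and knockout replicate 3 stood apart in different ways. Markers of sinusoidal endothelium summed to 12600 CPM in WT replicate 2 against 4850 to 7910 CPM in each other library, mitochondrial genes took 33.2% of the counts of knockout replicate 2 against 17.3% to 22.4% in each other library, and the ribosomal RNA gene Rn18s took 7.54% of those of knockout replicate 3 against 0.0527% to 0.122%. Hepatocyte markers summed to between 18600 and 62200 CPM, so hepatocyte RNA was present in every library.

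Per kilobase of exon, which allows levels to be compared between genes, mitotic genes other than Cenpa were low, at 0.11 to 2.98 CPM per kb in WT. Exon lengths were the union of all annotated exons of each gene in GENCODE M21 and ran from 1531 to 15433 bases. Cenpa, the histone H3 variant that marks centromeres, had the highest mean WT level at 7.81 CPM per kb. It was followed by Cdk1 at 2.98, the passenger scaffold gene Incenp at 2.69, the kinetochore gene Spc25 and the topoisomerase gene Top2a both at 2.57, and Mki67, the gene of the Ki-67 coat of mitotic chromosomes, at 2.43 CPM per kb. Ccnb2 (2.26 CPM per kb) stood above its paralog Ccnb1 (0.731). At the low end were Cdca8 (0.351), Plk1 (0.346), Ttk (0.311), Cenpm (0.206), Cenpf (0.175) and Cdc25c (0.11 CPM per kb). Neighbours in this order differed by less than the larger of their WT standard deviations, apart from the steps from Cenpa to Cdk1, from Bub1b (2.03) to Ccna2 (1.68) and from Cenpf to Cdc25c. Rarely used exons in the annotation lower the value of long genes. Cenpa kept this first place in the knockout group, at 9.78 CPM per kb against 3.92 for Cdk1.

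The promoters of these genes share short elements, shown here because members that are switched on together late in the cycle are known to carry them. RefSeq promoter windows (GRCm38.p6), from 250 bases before to 50 bases after an annotated start, were at hand for 34 of the 41 genes. The others, Ccna2, Cdc25c, Foxm1, Aurkb, Incenp, Tpx2 and Kif20a, had no window. The windows were searched on both strands for the CCAAT box (CCAAT), bound by NF-Y, and for the cell cycle homology element (TTTGAA or TTCGAA), bound by DREAM, B-Myb and FoxM1 complexes. The following 8 windows, from 120 bases before to 12 bases after the start and read 5′ to 3′ along the gene, have matches on either strand in capitals; a match on the other strand reads ATTGG or TTCAAA. The first 4 are the members with the smallest p-values in the comparison of the groups, the next 3 are core genes of mitotic entry and exit, and Racgap1 is a member with a fold change near 0. Birc5 has no match, and the element of Plk1 lies beyond the bases shown. The counts were made on GRCm39, so these coordinates belong to RefSeq's build and not to the counts.
Ube2c (GRCm38.p6 chr2:164769809-164769940, plus strand): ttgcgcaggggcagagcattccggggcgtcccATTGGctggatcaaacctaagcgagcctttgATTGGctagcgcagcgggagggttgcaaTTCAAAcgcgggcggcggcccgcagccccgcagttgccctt
Cenpe (GRCm38.p6 chr3:135212443-135212574, plus strand): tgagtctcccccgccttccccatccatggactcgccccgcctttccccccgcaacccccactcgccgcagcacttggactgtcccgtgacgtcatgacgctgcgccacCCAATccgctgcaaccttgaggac
Plk1 (GRCm38.p6 chr7:122159315-122159446, plus strand): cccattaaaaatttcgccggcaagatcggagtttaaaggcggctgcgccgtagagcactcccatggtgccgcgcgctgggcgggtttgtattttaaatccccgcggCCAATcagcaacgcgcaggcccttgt
Birc5 (GRCm38.p6 chr11:117849117-117849248, plus strand): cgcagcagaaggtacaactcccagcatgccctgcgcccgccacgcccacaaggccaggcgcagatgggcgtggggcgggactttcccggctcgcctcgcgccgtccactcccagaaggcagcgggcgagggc
Cdk1 (GRCm38.p6 chr10:69352901-69353032, minus strand): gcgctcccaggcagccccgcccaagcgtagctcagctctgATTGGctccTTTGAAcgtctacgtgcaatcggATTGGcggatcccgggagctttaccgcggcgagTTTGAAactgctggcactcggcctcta
Cdc20 (GRCm38.p6 chr4:118437332-118437463, minus strand): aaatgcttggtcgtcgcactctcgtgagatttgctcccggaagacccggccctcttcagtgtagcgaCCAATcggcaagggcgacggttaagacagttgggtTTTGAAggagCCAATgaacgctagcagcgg
Ccnb2 (GRCm38.p6 chr9:70421543-70421674, minus strand): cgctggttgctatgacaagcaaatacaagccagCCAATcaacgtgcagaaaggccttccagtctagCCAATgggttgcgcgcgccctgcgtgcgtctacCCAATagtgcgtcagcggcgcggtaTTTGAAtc
Racgap1 (GRCm38.p6 chr15:99651645-99651776, minus strand): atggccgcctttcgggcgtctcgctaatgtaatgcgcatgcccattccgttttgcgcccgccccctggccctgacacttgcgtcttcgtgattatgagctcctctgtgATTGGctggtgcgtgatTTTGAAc

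A CCAAT box stood in the windows of 27 of 34 members, or 79.4% (95% Wilson interval 63.2% to 89.7%), against 42.9% of the 10985 tested genes with a window. The cell cycle homology element stood in 27 of 34, or 79.4%, against 17.2% of those genes, and both stood together in 24 of 34, or 70.6%, against 8.27%. The element sat close to the start, with 25 of its 36 sites within 50 bases on either side, while CCAAT boxes lay further upstream, with a median distance of -68 bases. When bases before the start were searched alone, the element was found in 35.3% of members against 15.4% of tested genes. In 20 of the 34 genes the CCAAT box was repeated, as in Ccnb2, Cdc20, Cdk1 and Ube2c above. By contrast, the E2F motif (TTT, then 2 bases that are each C or G, then CGC), known from genes of DNA replication, was found in 2 of 34 members, or 5.88%, and in 14 of 31 S phase genes, or 45.2%, against 4.47% of tested genes. Matches to different motifs overlapped at 1 place. Members with both elements had log2 fold changes from -0.14 to 1.01 with a median of 0.39, and the 4 members with neither, Birc5, Nuf2, Mad2l1 and Nusap1, from 0.12 to 0.70 with a median of 0.44. The ranges overlapped, so holding these letters did not separate members by their fold change.

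**Figure D1:**
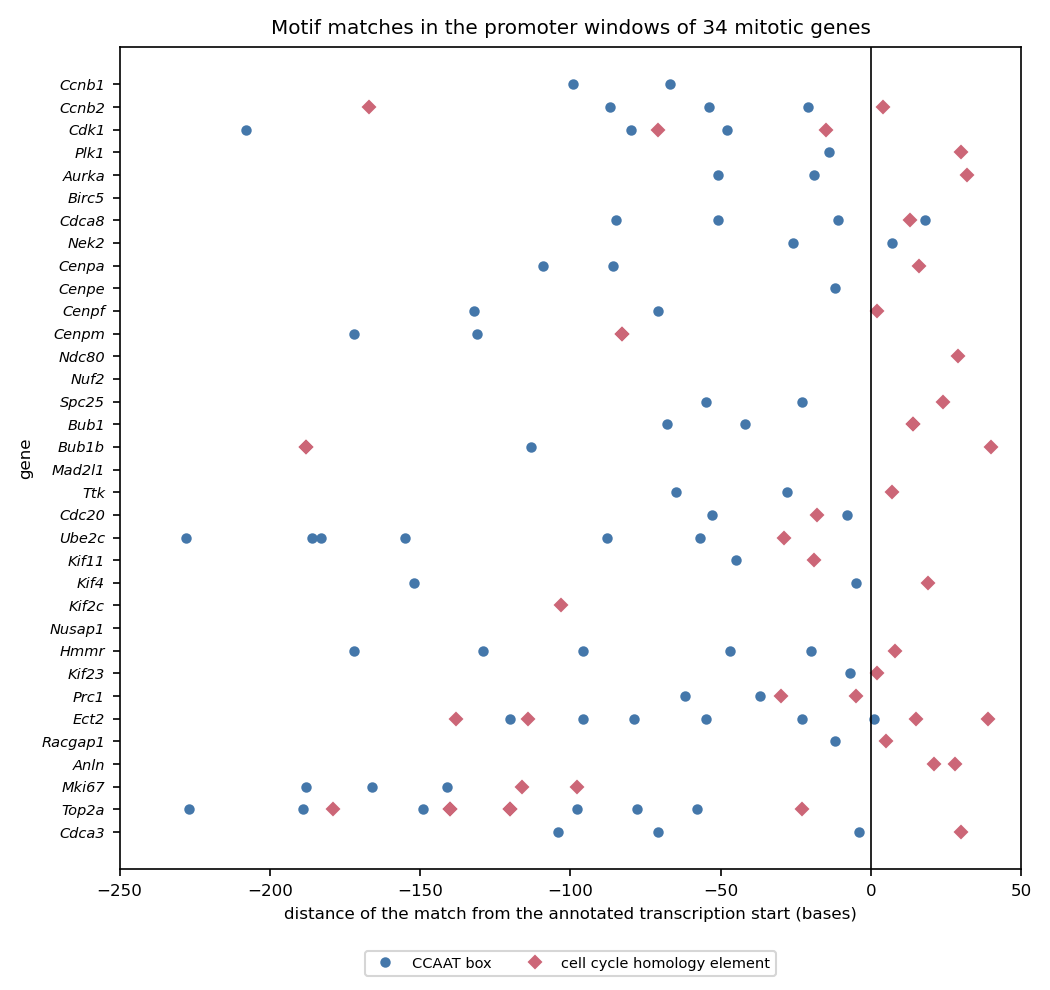
Position of each motif match (x axis, bases from the annotated transcription start, from 250 before to 50 after) in the promoter windows of 34 mitotic genes (y axis). Circles are CCAAT boxes and diamonds are cell cycle homology elements on either strand; Prc1 and Ect2 have 2 overlapping windows each, so their matches appear at 2 distances. The element lies near the start in most rows and the CCAAT boxes upstream of it, and Birc5, Nuf2, Mad2l1 and Nusap1 have neither.

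The comparison of the knockout with WT asks what follows in the whole fraction when 1 of its cell types lacks Shp2. Most mitotic genes had higher values in the knockout libraries, while no single gene passed the test corrected over all genes. Some, such as Cenpe, Ube2c, Birc5 and Plk1, separated the groups in every library. Of the 41 members, 39 had a log2 fold change above 0 (knockout over WT), or 95.1%, against 51.7% of the 14077 genes tested. Their median log2 fold change was 0.41 with a range of -0.14 to 1.01, and the median of all genes tested was 0.01. In 14 members (34.1%) every knockout library lay above every WT library, which 3.03% of all genes did. The 14 include Cdc25c, whose passing of the filter on low counts owed more to the knockout libraries. By contrast, 0 members had every knockout library below every WT library, against 3.05% of all genes. In edgeR's quasi-likelihood test 9 members (22.0%) had an unadjusted p under 0.05 and were higher in the knockout, against 2.27% of all genes, and 0 were lower, against 2.35%. After adjustment over all genes 0 members passed, as did 0% of all genes, and the smallest adjusted p among members was 0.790. DESeq2 also placed 9 members at an unadjusted p under 0.05, all higher, against 2.43% of all genes, and called 0 members after adjustment, while it called 0.469% of all genes in either direction. The members were chosen with earlier results of these data known, so these shares describe the set and are not a test of it.

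The 9 members were Cenpe, Ube2c, Birc5, Plk1, Mad2l1, Aurkb, Cdca3, Kif2c and Cdca8. Over the main analysis and the 19 other settings and library subsets, Cenpe had an unadjusted p under 0.05 in 20 of 20, Ube2c and Birc5 in 19, Plk1 in 17 and Mad2l1 in 15. The count of 9 fell to 2 (Cenpe and Ube2c) without knockout replicate 2, to 4 without WT replicate 3, and to 5 without WT replicate 1 or WT replicate 2. The share of all genes higher at that p was 2.39% without knockout replicate 2, 1.82% without WT replicate 3, and 2.30% and 1.99% without WT replicates 1 and 2. The count was 5 with library sizes alone as the scaling (1.51% of all genes) and 16 in limma voom with library quality weights (6.03%). The median log2 fold change of the members stayed between 0.37 and 0.49 in all of these, and 34 members were above 0 in every setting that tested them.

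**Figure D2:**
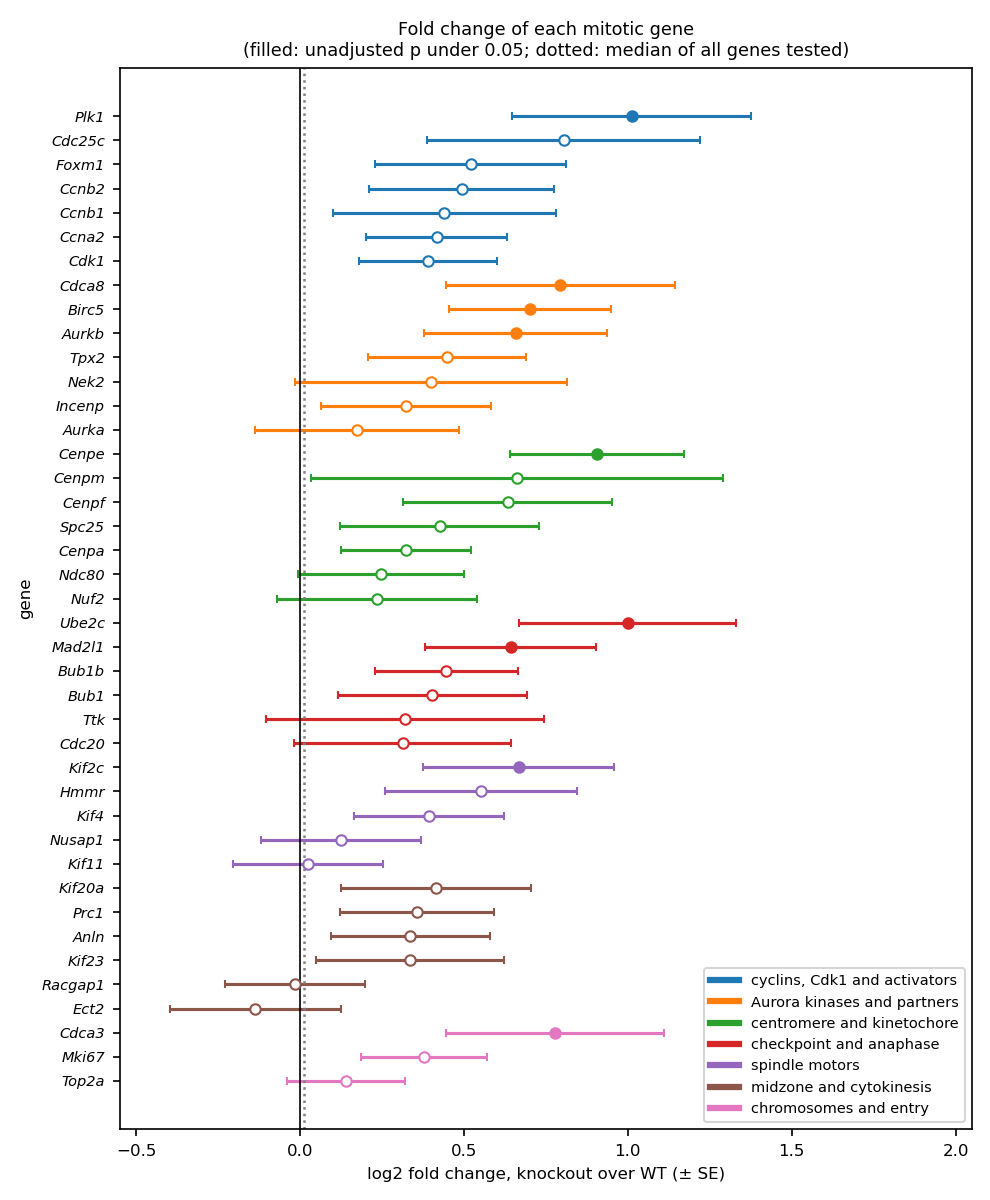
Log2 fold change of each of the 41 mitotic genes (x axis, knockout over WT, points with ± SE from edgeR, 3 against 4 libraries), grouped by role in colour (y axis, genes). Filled points have an unadjusted p under 0.05, the dotted line is the median of all genes tested at 0.01, and only Ect2 and Racgap1 lie below 0.

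Among the 7 genes that drive entry into mitosis, all had log2 fold changes above 0 (median 0.49). In 4 (57.1%) the groups did not overlap, against 3.03% of all genes with the knockout higher. The 4 include Cdc25c, which passed the filter on low counts with 2 WT and 3 knockout libraries above the filter's level. Plk1, the Polo-like kinase that switches on Cdk1 and matures the centrosomes, was at 1.06, 0.724, 0.664 and 0.589 CPM in WT replicates 1 to 4 and at 1.21, 1.66 and 1.79 CPM in knockout replicates 1 to 3. It was a rare transcript (8 to 40 counts per library), and each knockout library lay above each WT library. Its log2 fold change was 1.01 ± 0.36 (SE; edgeR, unadjusted p = 0.0192, adjusted p = 0.956). Ccna2, the cyclin of S phase and early mitosis, was at 7.40, 7.19, 6.31 and 6.56 CPM in WT and 8.06, 10.1 and 9.40 CPM in knockout libraries (0.42 ± 0.22, SE). Its groups did not overlap either, although 12.5% of its exon bases overlap Exosc9 on the opposite strand, which the unstranded kit cannot tell apart. Exosc9 itself had a log2 fold change of -0.14 ± 0.23 (SE). Cdk1, the mitotic kinase itself, was at 15.8, 13.7, 11.5 and 17.9 CPM in WT and 18.8, 20.9 and 18.3 CPM in knockout libraries (log2 fold change 0.39 ± 0.21, SE). The lowest knockout library lay just above the highest WT library.

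The B cyclins, which bind Cdk1 to start mitosis, did not separate the groups. Ccnb2 was at 3.56, 2.69, 3.66 and 3.95 CPM in WT and 3.72, 4.73 and 6.24 CPM in knockout libraries, with the highest value in knockout replicate 3 (log2 fold change 0.49 ± 0.28, SE). Ccnb1 was at 3.25, 1.86, 3.82 and 3.40 CPM in WT and 5.72, 3.67 and 3.03 CPM in knockout libraries (0.44 ± 0.34, SE), and here knockout replicate 1 was highest and knockout replicates 2 and 3 lay inside the WT range. Foxm1, the transcription factor gene that activates many of the other members, was at 3.56, 2.54, 3.49 and 4.04 CPM in WT and 4.21, 4.02 and 6.49 CPM in knockout libraries (0.52 ± 0.29, SE). Its second knockout value fell just inside the WT range. Cdc25c, the phosphatase that removes the brake from Cdk1, was the lowest member per kilobase, at 0.692, 0.259, 0.664 and 0.547 CPM in WT and 0.939, 0.947 and 0.927 CPM in knockout libraries. The groups did not overlap, but these are 5 to 31 counts per library. Gm3550, which was not among the genes tested, covers 12.7% of the exon bases of Cdc25c on the opposite strand. Cdc25c passed the filter on low counts with 2 WT and 3 knockout libraries above the filter's level, so its passing owed more to the group where it was higher.

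The Aurora kinases and their partners held 3 of the 9 members with small unadjusted p-values, and the log2 fold changes of all 7 were above 0 (median 0.45). Birc5, or survivin, which anchors the chromosomal passenger complex, was at 6.12, 4.09, 4.57 and 6.47 CPM in WT and 8.42, 8.88 and 8.72 CPM in knockout libraries. The 3 knockout values lay close together and above all WT values (log2 fold change 0.70 ± 0.25, SE; edgeR, unadjusted p = 0.0168, adjusted p = 0.956). Aurkb, the kinase of the same complex, was at 3.03, 2.85, 3.32 and 3.83 CPM in WT and 3.82, 5.21 and 6.49 CPM in knockout libraries, so that knockout replicate 1 sat level with the highest WT library (0.66 ± 0.28, SE). Cdca8, or borealin, another part of the complex, was at 1.81, 1.19, 2.16 and 2.10 CPM in WT and 2.15, 3.08 and 4.27 CPM in knockout libraries (0.79 ± 0.35, SE), and again only knockout replicate 1 reached into the WT range. The scaffold of the complex, Incenp, did not share this pattern. It was at 11.97, 11.85, 11.88 and 10.8 CPM in WT and 10.9, 11.7 and 21.1 CPM in knockout libraries, and its log2 fold change of 0.32 became -0.04 without knockout replicate 3. The spindle pole kinase genes Aurka (0.17 ± 0.31, SE) and Nek2 (0.40 ± 0.41, SE) overlapped between groups, and Aurka turned to -0.10 without knockout replicate 3. Tpx2, which activates Aurora A on the spindle, ran from 3.99 to 6.01 CPM in WT and from 6.66 to 7.67 CPM in knockout libraries, without overlap (0.45 ± 0.24, SE).

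**Figure D3:**
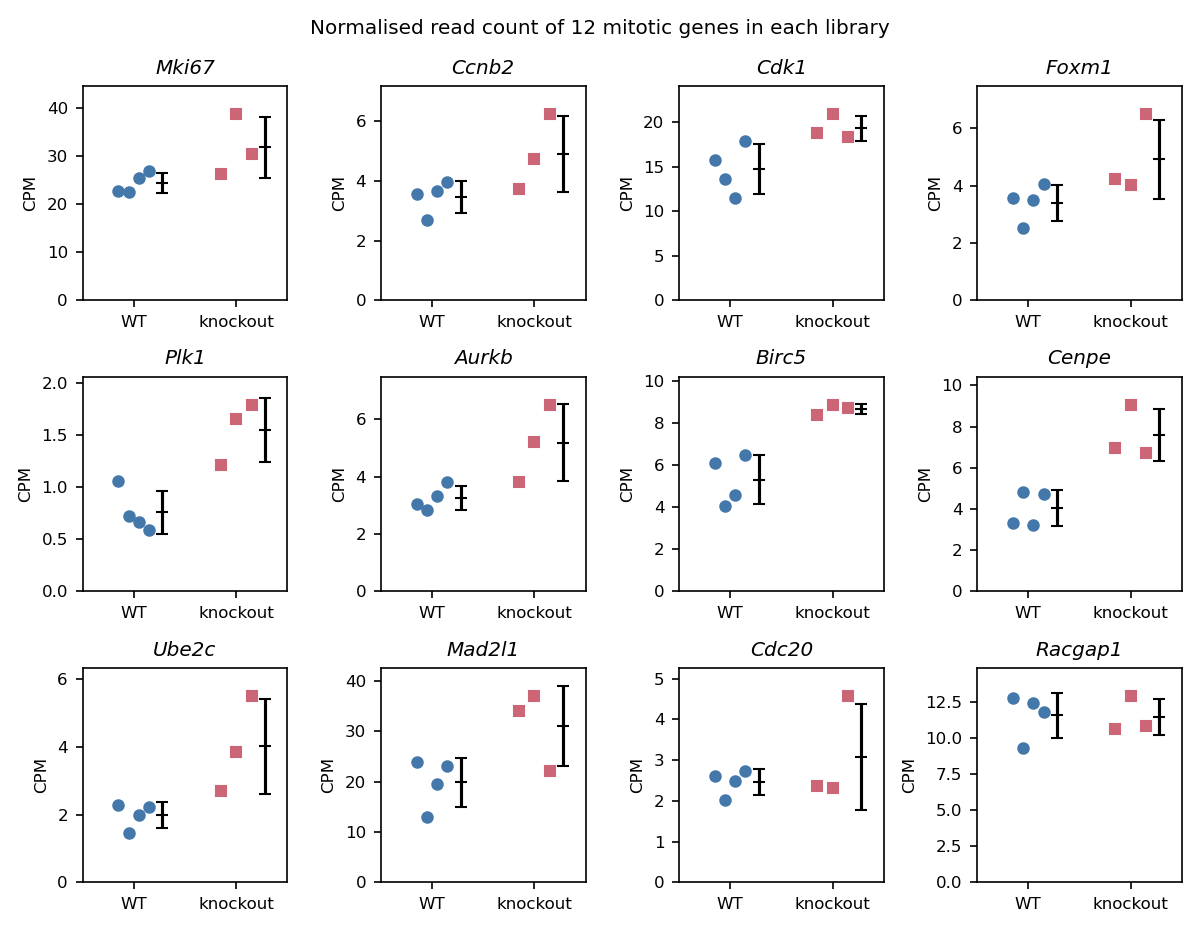
Normalised read count (y axis, CPM with TMM scaling) of 12 mitotic genes in each WT library (circles, n = 4) and each knockout library (squares, n = 3), with the group mean ± SD beside the points. Birc5, Cenpe, Ube2c, Plk1 and Cdk1 separate the groups, in Mad2l1 1 knockout library and in Cdc20 2 lie within the WT range, and Racgap1 is level.

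Of the 7 centromere and kinetochore genes, all had log2 fold changes above 0 (median 0.43), and Cenpe stood out. Cenpe, the kinesin that carries chromosomes to the spindle equator, was at 3.30, 4.81, 3.24 and 4.75 CPM in WT and 6.97, 9.05 and 6.74 CPM in knockout libraries. The groups were well apart, with a log2 fold change of 0.91 ± 0.26 and the smallest p of all members (SE; edgeR's quasi-likelihood test, unadjusted p = 0.00624, adjusted p = 0.790). Cenpf, a large kinetochore protein gene, overlapped through WT replicate 4, at 3.91 CPM against 3.63 to 5.27 CPM in the knockout libraries (0.63 ± 0.32, SE). Cenpa, the centromere histone, was at 35.7 to 55.7 CPM in WT and 52.0 to 66.0 CPM in knockout libraries (0.32 ± 0.20, SE). The Ndc80 complex, which grips the microtubule, was measured through Ndc80 (0.25 ± 0.25), Nuf2 (0.24 ± 0.31) and Spc25 (0.43 ± 0.30, log2 fold changes with SE), and the groups overlapped in each. Cenpm, part of the inner kinetochore, had 1 to 21 counts per library and a log2 fold change of 0.66 ± 0.63 (SE), and it passed the filter with 1 WT and 2 knockout libraries above the filter's level.

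The spindle checkpoint and the machinery of anaphase were split. Ube2c, the enzyme that starts ubiquitin chains for the anaphase-promoting complex, was at 2.29, 1.45, 1.99 and 2.23 CPM in WT and 2.696, 3.85 and 5.50 CPM in knockout libraries. Its groups did not overlap, and the log2 fold change was 1.00 ± 0.33 (SE; edgeR, unadjusted p = 0.0125, adjusted p = 0.924). Tnnc2, which covers 22.8% of its exon bases on the opposite strand, was too low to be tested. Mad2l1, the checkpoint protein that binds Cdc20, was at 23.8, 13.04, 19.5 and 23.0 CPM in WT and 33.9, 37.0 and 22.1 CPM in knockout libraries (0.64 ± 0.26, SE). Knockout replicates 1 and 2 were well above WT, and knockout replicate 3 lay inside the WT range. Bub1b, the checkpoint kinase-like protein BubR1, was at 9.42, 10.04, 7.64 and 7.53 CPM in WT and 11.3, 10.8 and 13.4 CPM in knockout libraries, without overlap (0.45 ± 0.22, SE; edgeR, unadjusted p = 0.0681). Cdc20, the activator of the anaphase-promoting complex, was at 2.61, 2.02, 2.49 and 2.73 CPM in WT and 2.36, 2.31 and 4.58 CPM in knockout libraries, and its log2 fold change of 0.31 became -0.08 without knockout replicate 3. The checkpoint kinase genes Bub1 (0.40 ± 0.29) and Ttk (0.32 ± 0.42, log2 with SE) overlapped between groups.

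The spindle motors ranged from a clear separation to none. Kif2c, a kinesin that takes microtubules apart at centromeres, was at 1.44, 1.45, 1.74 and 1.77 CPM in WT and 2.36, 2.37 and 2.91 CPM in knockout libraries. The groups did not overlap (log2 fold change 0.67 ± 0.29, SE; edgeR, unadjusted p = 0.0439, adjusted p = 0.956). The chromokinesin gene Kif4 also separated, at 4.65 to 6.23 CPM in WT and 6.81 to 7.04 CPM in knockout libraries (0.39 ± 0.23, SE), with 15.1% of its exon bases shared with Pdzd11 on the opposite strand. Pdzd11 itself had a log2 fold change of 0.20 ± 0.17 (SE). Hmmr, a spindle assembly protein, was higher in knockout replicates 1 and 2, at 5.06 and 4.85 CPM, than in knockout replicate 3, at 3.15 CPM, and WT libraries ran from 2.33 to 3.67 CPM (0.55 ± 0.29, SE). Kif11, the motor that pushes the spindle poles apart, was at 9.69, 7.04, 8.31 and 9.16 CPM in WT and 8.57, 10.1 and 7.42 CPM in knockout libraries, level at 0.03 ± 0.23 (SE) and of either sign depending on the libraries kept. Nusap1, which bundles spindle microtubules, was at 0.12 ± 0.24 (SE).

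The genes of the midzone and of cytokinesis had the lowest median of the roles, 0.34, and included both members below 0, and 0 of these 6 had an unadjusted p under 0.05. Ect2, an exchange factor that starts the contractile ring at the division plane, was at 5.69, 4.71, 3.90 and 6.26 CPM in WT and 4.45, 5.27 and 4.39 CPM in knockout libraries. All knockout values lay inside the WT range (log2 fold change -0.14 ± 0.26, SE). Its partner Racgap1, a GTPase-activating part of centralspindlin, was at 12.8, 9.31, 12.4 and 11.8 CPM in WT and 10.6, 12.9 and 10.8 CPM in knockout libraries (-0.02 ± 0.21, SE, and above 0 with upper quartile scaling or when either of WT replicates 1 and 3, or of knockout replicates 1 and 3, was left out). The kinesin of centralspindlin, encoded by Kif23, spread widely within WT, from 6.81 to 15.1 CPM, and overlapped the knockout values of 11.1 to 17.2 CPM (0.34 ± 0.29, SE). Anln, which links actin to the contractile ring, was at 0.34 ± 0.24 (SE). The midzone genes Prc1 (4.04 to 5.09 CPM in WT, 5.48 to 6.74 CPM in knockout) and Kif20a (2.08 to 3.87 CPM in WT, 4.08 to 4.39 CPM in knockout) separated the groups, with log2 fold changes of 0.36 ± 0.24 and 0.41 ± 0.29 (SE). Both overlap another gene on the opposite strand, Prc1 over 11.1% of its exon bases and Kif20a over 29.3%. Cdc23, the partner of Kif20a, was at 23.8 to 30.9 CPM with a log2 fold change of 0.04 ± 0.18 (SE). Rccd1, the partner of Prc1, was at 1.9 to 5.3 CPM with a log2 fold change of 0.31 ± 0.35 (SE).

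The familiar proliferation markers had smaller fold changes than many other members. Mki67 was at 22.7, 22.6, 25.5 and 26.9 CPM in WT and 26.2, 38.7 and 30.4 CPM in knockout libraries. Knockout replicate 1 lay inside the WT range (log2 fold change 0.38 ± 0.19, SE; edgeR, unadjusted p = 0.0782, adjusted p = 0.956). Top2a, which untangles sister chromatids, was at 24.3, 24.2, 20.6 and 23.7 CPM in WT and 24.1, 29.0 and 23.6 CPM in knockout libraries, and only knockout replicate 2 exceeded WT (0.14 ± 0.18, SE). Cdca3, a trigger of mitotic entry, was at 3.30, 1.76, 3.90 and 4.71 CPM in WT and 5.24, 6.45 and 5.94 CPM in knockout libraries. There the groups did not overlap, at 0.78 ± 0.33 (SE; edgeR, unadjusted p = 0.0402, adjusted p = 0.956).

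**Figure D4:**
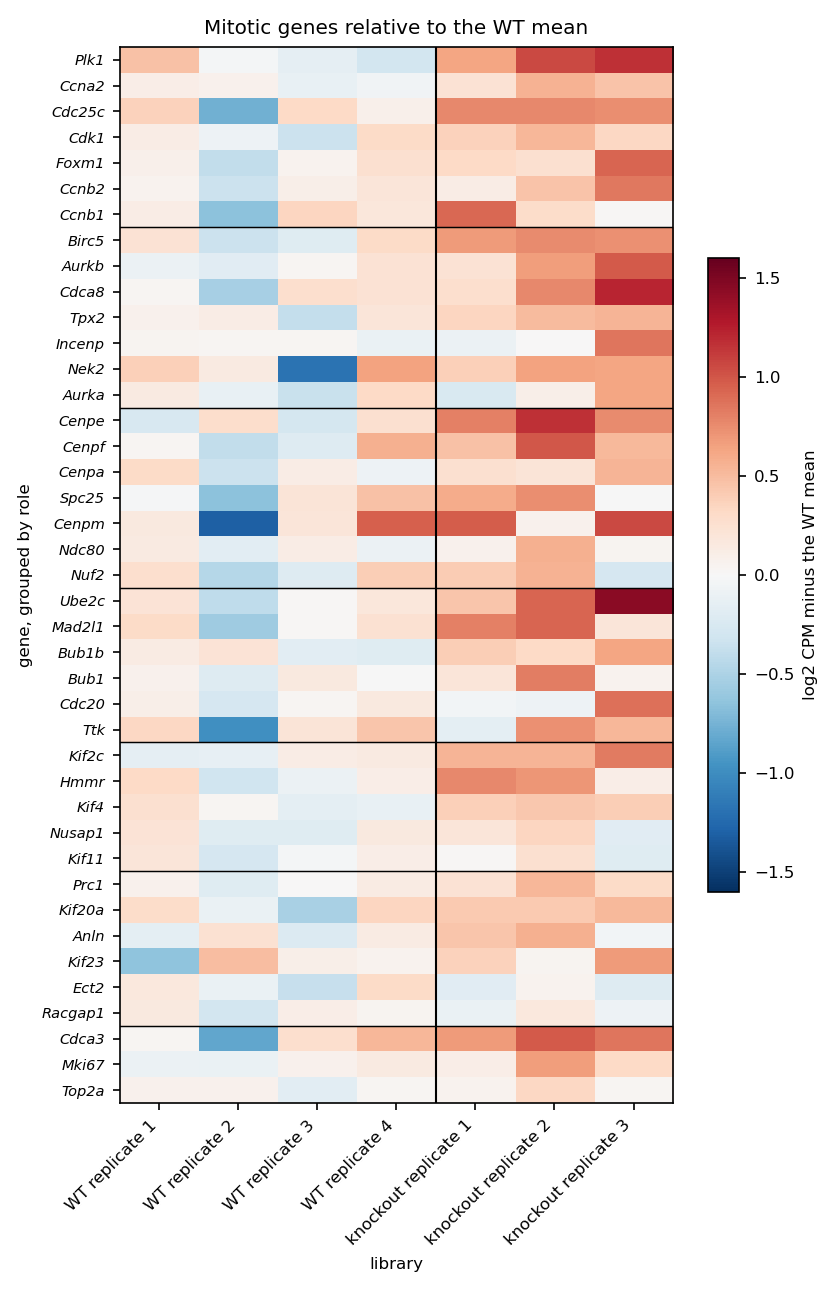
Log2 CPM of each mitotic gene (y axis, grouped by role) in each library (x axis), minus the gene's mean over the 4 WT libraries, in colour from -1.6 (blue) to 1.6 (red). Knockout replicate 2 is red in most rows, WT replicate 2 is blue in many, and knockout replicate 3 is deep red in some rows and pale in others such as Ccnb1, Spc25, Nuf2 and Anln.

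Most members were high in the same libraries. The median member lay at 0.36, 0.54 and 0.53 log2 units above its WT mean in knockout replicates 1 to 3, and at 0.12, -0.20, 0.01 and 0.18 in WT replicates 1 to 4. In knockout replicate 2, 40 of 41 members were above their WT mean, in knockout replicate 1 35, and in knockout replicate 3 34. In WT replicates 1 to 4 the counts were 34, 10, 22 and 33, so by this count the groups touched. The highest of the 7 values fell in a knockout library for 39 members (95.1%, against 45.7% of all genes). It fell in knockout replicate 2 for 21 members (51.2%, against 10.1% of all genes) and in knockout replicate 3 for 16 (39%, against 26.7%). In knockout replicate 1 it fell for 2 (4.88%, against 8.95%). The lowest value fell in a WT library for all 41 members (100%, against 54.8% of all genes), and in WT replicate 2 for 24 of them (58.5%, against 25.6% of all genes).

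Knockout replicate 3 divided the members in a way that followed base composition. It was the highest of the knockout libraries for 16 members, among them Cdc20, Incenp, Ube2c, Aurka, Cdca8 and Foxm1, and the lowest for 15, among them Nuf2, Mad2l1, Spc25, Hmmr, Ccnb1 and Anln. The longest annotated transcripts of the first set had a median GC content of 50.9% (46.3% to 56.0%) and those of the second 42.4% (40.1% to 47.8%). The same gradient ran through all genes. In the fifth of 2761 genes lowest in GC, the median log2 ratio of knockout replicate 3 to the mean of the other knockout libraries was -0.50, and in the fifth highest in GC it was 0.84. With a correction for GC content in each library, added after seeing the data, the median log2 fold change of the members was 0.41 and 13 had an unadjusted p under 0.05, against 2.65% of all genes higher at that p. With the correction but without knockout replicate 3 the values were 0.37 and 6, against 2.41% of all genes. The 2 sets, which were split by knockout replicate 3 and not by GC content, had median log2 fold changes of 0.47 and 0.39. Over all genes the median log2 fold change, knockout over WT, was -0.05 in the fifth lowest in GC and 0.18 in the fifth highest. The part of base composition in the fold changes was not tested.

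Other genes of the cell cycle, taken from lists outside the 41, had medians that differed from list to list. Of 61 further mitotic genes tested, 50 (82%) had log2 fold changes above 0, against 51.7% of all genes, with a median of 0.36. At an unadjusted p under 0.05 in edgeR 7 were higher (11.5%, against 2.27% of all genes) and 0 lower (against 2.35%). Among the 7 were Cdca2 (0.85 ± 0.30) and the condensin gene Ncapg2 (0.50 ± 0.18, log2 with SE). Of 37 S phase genes tested, 30 (81.1%) were above 0 with a median of 0.17. At an unadjusted p under 0.05 in edgeR 1 was higher and 0 lower. That share higher, 2.7%, was near the 2.27% of all genes. The gene was Orc1, part of the origin recognition complex (0.92 ± 0.39, SE). The thymidine kinase gene Tk1 (0.83 ± 0.38) and Gins2 (0.73 ± 0.37) followed, and Pcna, the sliding clamp of replication, was level at -0.01. The S phase median was 0.04 without knockout replicate 3 and 0.29 without knockout replicate 1. Over all genes tested 0 members of any of these lists passed after adjustment in edgeR or DESeq2.

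Set against S phase genes within the same library, the mitotic genes took a larger part in the knockout group. Their summed CPM divided by that of the 38 S phase genes was 0.475, 0.456, 0.498 and 0.5 in WT replicates 1 to 4 and 0.580, 0.580 and 0.585 in knockout replicates 1 to 3. The groups did not overlap, and the ratio does not depend on the scaling of the libraries. With each gene given equal weight, the mean log2 CPM of mitotic genes minus that of S phase genes was -1.12, -1.23, -1.13 and -0.99 in WT and -0.77, -0.84 and -0.97 in knockout libraries, so that the gap between groups was small. This ratio was not tested, since it rests on members chosen with results known.

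**Figure D5:**
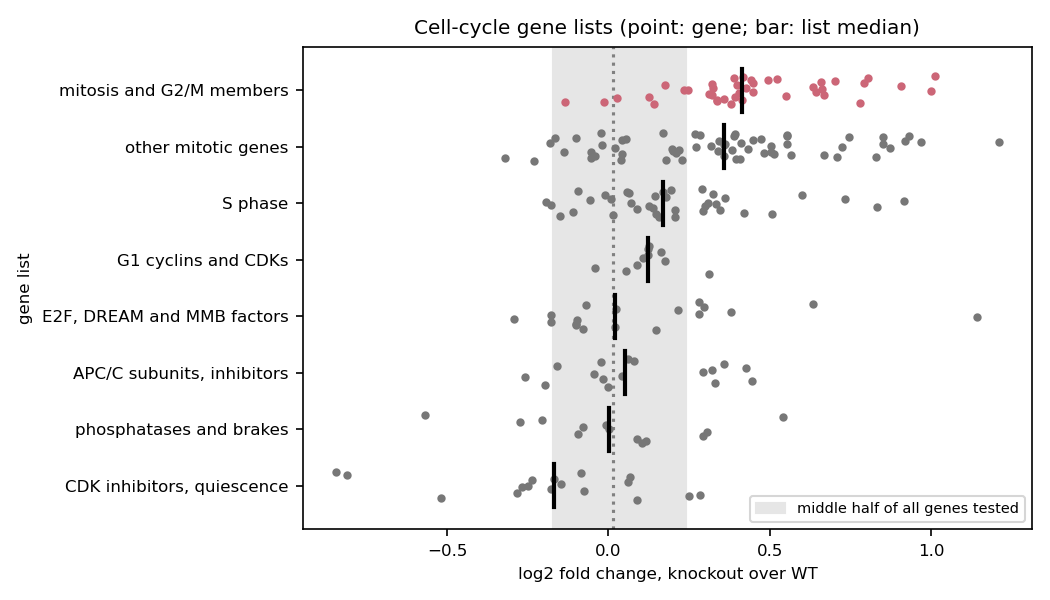
Log2 fold change (x axis, knockout over WT) of each gene (points) in the 41 mitotic genes and in other cell-cycle lists (y axis), with the list median as a bar. The grey band is the interquartile range of all genes tested, from -0.17 to 0.24, and the medians run from 0.41 for the mitotic genes to -0.17 for inhibitors of the cycle.

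As lists, the regulators that act on the mitotic genes had medians nearer to that of all genes, while single activators such as Mybl2 lay further from it. Foxm1, counted among the members, was at 0.52. Of 18 genes of the E2F, DREAM and B-Myb systems, 10 were above 0 (median 0.02). In edgeR 1 was higher at an unadjusted p under 0.05 (5.56%, against 2.27% of all genes). This was E2f2, which averaged 3.33 ± 0.73 CPM over the WT and 5.21 ± 1.09 CPM over the knockout libraries (SD, n = 4 and 3). Mybl2, the gene of B-Myb, was low, at 0.441 ± 0.202 CPM (SD, n = 4) and 1.01 ± 0.60 CPM (SD, n = 3), with a difference of 1.14 ± 0.56 on the log2 scale (SE; edgeR, unadjusted p = 0.0682). Tfdp1 was at 0.28 ± 0.20 and E2f1 at 0.28 ± 0.41 (log2 with SE), and the groups overlapped in both. Of 10 G1 cyclin and kinase genes, 9 were above 0 (median 0.12) and 0 had an unadjusted p under 0.05, with Myc (0.31), Cdk2 (0.17) and Ccnd3 (0.16) the first by p. The same count was 0 of 16 for subunits and inhibitors of the anaphase-promoting complex (median 0.05), led by Anapc10 (0.43), Anapc5 (0.36) and Anapc11 (0.32), and 0 of 13 for mitotic phosphatases and brakes (median 0.00), led by Wee1 (-0.57), Ppp2r2d (-0.27) and Pkmyt1 (0.54).

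Inhibitors of the cycle and genes of the resting state leaned the other way, with 12 of 17 tested below 0 and a median log2 fold change of -0.17. Their share above 0 was 29.4%, against 51.7% of all genes. Cdkn1c, the gene of p57, averaged 23.9 ± 10.1 CPM over the WT and 13.6 ± 3.08 CPM over the knockout libraries (SD, n = 4 and 3), without overlap (-0.81 ± 0.32, SE; edgeR, unadjusted p = 0.0285, adjusted p = 0.956). WT replicate 2 was at 38.7 CPM, the other WT libraries at 17.3 to 22.1 and the knockout libraries at 10.1 to 15.7 CPM. Cdkn1a, the gene of the p53-induced inhibitor p21, was at 16.4 ± 9.51 and 9.14 ± 3.12 CPM (SD), with overlap (-0.84 ± 0.46, SE). It was also highest in WT replicate 2 (26.8 CPM), and WT replicates 1 and 4 (8.41 and 8.24 CPM) lay inside the knockout range. Ccng2 was at -0.28 ± 0.19 (SE).

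The 41 mitotic genes summed to 261 to 317 CPM in WT and 360 to 405 CPM in knockout libraries, without overlap. The summed markers of each of 13 cell type lists overlapped between the groups, but sums are led by a few abundant genes, and single markers did separate the groups. Scaled by total counts alone, without TMM, the mitotic sums were 263 to 354 and 353 to 407, which touch. Kupffer cell markers summed to 4930 to 10300 CPM in WT and 4070 to 5140 CPM in knockout libraries, with 10 of 13 below 0. In 6 of these the groups did not overlap, against 3.05% of all genes with the knockout lower. Among them were Cd163 (-3.41 ± 0.47), Timd4 (-2.24 ± 0.53) and Clec4f (log2 fold changes with SE). For Clec4f, the presence of Clec4f-Cre and the loss of Shp2 cannot be told apart. Cd207, on the same list, went the other way without overlap (2.03 ± 0.25, SE). It ran from 66.4 to 120 CPM in WT and from 334 to 388 CPM in knockout libraries. DESeq2 called 5 of the 13 after adjustment, counted in either direction, against 0.469% of all genes. Markers of monocytes and recruited macrophages summed to 648 to 964 and 835 to 1550 CPM, with 8 of 11 above 0. The highest sum fell in knockout replicate 2, where Plac8 alone was at 1058 CPM and 21 mitotic genes were highest. The sum of knockout replicate 3, where 16 mitotic genes were highest, was 835 CPM and lay inside the WT range. Of the 11 markers, Cx3cr1 (1.92 ± 0.32) and Ms4a7 (1.10 ± 0.31, log2 with SE) were higher without overlap, against 3.03% of all genes. Cx3cr1 was highest in knockout replicate 3 and Ms4a7 in knockout replicate 1, and Ly6c2, Itgam and Fn1 were below 0. Neutrophil markers summed to 61.5 to 141 and 93.8 to 376 CPM, with 5 of 9 above 0. T and NK cell markers summed to 259 to 796 and 209 to 535 CPM, with 1 of 12 above 0, and B and plasma cell markers to 303 to 751 and 239 to 438 CPM, with 5 of 7 tested above 0. Among dividing blood precursors, early myeloid markers summed to 117 to 279 and 129 to 230 CPM. Of these, 5 of 7 (Elane, Mpo, Prtn3, Ctsg and Ms4a3) were under 0.5 CPM in every library. Kit and Cd34, also on the list, were not: Kit was at 98.1 to 249.1 CPM in WT and 112.7 to 210.3 CPM in knockout libraries. Cd34 was at 14.71 to 29.29 and 16.21 to 19.75 CPM. Erythroid markers summed to 53.2 to 165 and 101 to 116 CPM. Stellate cell markers summed to 1400 to 1860 and 1120 to 2000 CPM (8 of 10 above 0), and cholangiocyte markers to 64.9 to 90.7 and 78.1 to 130 CPM (7 of 7 above 0). Sinusoidal endothelial markers had 2 of 12 above 0, and WT replicate 2, which was richest in them, held the lowest value of 24 mitotic genes. The part of cell composition in the mitotic values was not tested.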

How the data were processed

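The values the authors deposited are raw read counts, 1 column for each of 7 libraries. The submitters' processing notes name GRCm39 as the build and, among tools, STAR 2.7.10a, featureCounts 2.0.3, SAMtools 1.9 and FastQC 0.11.9, and the annotation and the strand setting of the counting are not given in the sources. Per the labels' protocols the TruSeq v2 kit was used on 1.0 µg of RNA. That kit does not mark strand, so where exons of opposite strands overlap, the source of a read is unknown.

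Counts were tested with edgeR 4.0.16 (R 4.3.3), as a quasi-likelihood test with TMM factors, group as the only term and filterByExpr (minimum count 10, minimum total 15), which kept 14077 genes and all 41 members. P-values were adjusted over all of these by the Benjamini-Hochberg method (threshold 0.05), and standard errors came from the fold change and the F statistic. Log2 CPM used a prior count of 2. DESeq2 1.42.0 and limma 3.58.1 were alternatives. The procedure was checked on simulated counts. Members and lists were chosen with earlier results of these data known. Values per library are given for core members, the 10 with the smallest p, the 3 with the lowest fold change and those nearest the filter, and the 3 genes with the smallest p are named from each other list, with Cdkn1a, E2f1, Mybl2 and Pcna; 1 gene that this rule names is not reported here. Promoter windows are RefSeq's (GRCm38.p6), and exon lengths, overlaps and GC content are from GENCODE M21 (GRCm38), matched by symbol. GC content was found for 13809 of the genes tested.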

Additional observations from a re-analysis of the deposited data

Results flagged for a closer look

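Incenp in WT replicate 4, at 10.8 CPM, lay apart from the other WT libraries, which held 11.85 to 11.97 CPM, with a gap of 0.895 of the whole WT range. It was 1 of 41 genes examined in this way in the WT group, and chance alone gives such a value in about 1 of 20 groups.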

How the results depend on the processing

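After adjustment 0 members passed in edgeR, DESeq2 or limma under any of the 19 alternatives. The number at an unadjusted p under 0.05 (9, with 2.27% of all genes higher at that p) was 16 in limma voom with quality weights (6.03%). It was 5 with library size only (1.51%), and 2 to 7 with 1 library left out (1.82% to 2.83%). Members whose groups did not overlap with the knockout lower went from 0 to 1 without WT replicate 2 and knockout replicate 3. With fewer libraries, groups separate more often. In that setting 20 members had the knockout higher without overlap, against 12% of all genes (3.03% in the main analysis). The share of all genes with the knockout lower is not given for that setting, so the 1 member is not read as a result. The share of promoters with the cell cycle homology element was 35.3% before the start alone. Log2 fold changes turned for 6 members. In voom with quality weights they were -0.0898 (Aurka), -0.0183 (Incenp), -0.0406 (Ttk) and -0.0974 (Cdc20), and without WT replicate 2 and knockout replicate 3 they were -0.160, -0.0312, -0.0181 and -0.164. With 1 library left out Aurka ran from -0.105 to 0.358, Incenp from -0.0412 to 0.485, Cdc20 from -0.0774 to 0.468, Kif11 from -0.106 to 0.124 and Racgap1 from -0.120 to 0.037. Kif11 was at -0.0276 with library size only, and Racgap1 at 0.0179 with upper quartile factors. With a GC correction, chosen after seeing the data, Racgap1 was at 0.0037, and Aurka at -0.0739 without knockout replicate 3. The cause was not tested.

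No paired analysis was possible because the labels give every library a different number. With 3 and 4 libraries and members often at a few CPM, single genes were measured with standard errors of 0.18 to 0.63 log2 units.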
